A study of Mus musculus with 6 samples.

Results

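The genes described here encode the receptors for glutamate, GABA, glycine and acetylcholine that are ion channels, together with the metabotropic glutamate receptors, in the cut sciatic nerve of male and female mice. They were chosen by symbol and by having a protein-coding transcript, and no measured value enters that rule: 67 of the 54309 genes listed. Of these, 66 encode receptor subunits, and the other met the rule through its symbol alone. A count was assigned to 64 members in some library, and Gabra6, Gabrr3 and Glra4 were at 0 in all 6 libraries. The filter on low counts passed 32 members.

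The tissue was the proximal sciatic nerve stump, still joined to the dorsal root ganglia, taken 24 h after axotomy (a complete cut), and its polyadenylated RNA was sequenced. Both sexes were C57BL/6 mice of 6 to 8 weeks: 3 male libraries and 3 female libraries, each from the pooled nerves of 2 mice, 6 mice per group. The pools held separate animals, so p-values measure the spread between pools. The comparison asks how gene expression in cut nerves of males differs from that of females; uninjured nerves were not analysed here, so nothing below measures an effect of the cut. Every fold change is male over female, and every log2 fold change is male minus female ± SE.

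Ionotropic receptors are channels that open when the transmitter binds. AMPA, kainate and NMDA receptors are tetramers gated by glutamate, and GABA-A, glycine and nicotinic receptors are pentamers gated by GABA, glycine and acetylcholine. Metabotropic glutamate receptors act through G proteins instead. In the brain and spinal cord these proteins sit at synapses. A nerve trunk holds axons, Schwann cells and connective tissue but no synapses and no neuronal cell bodies, and its Schwann cells and sensory axons are known to carry some of these receptors. The muscle nicotinic receptor belongs to the muscle endplate.

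The libraries held 49158283 to 69848769 estimated counts, and 18424 genes were tested. The Schwann cell gene Ncmap, which encodes a protein of noncompact myelin, averaged 405 TPM in males and 189 TPM in females. TPM is a transcript level corrected for length and brought to a common library total; CPM is the count scaled by the normalised library size. Some libraries held counts that their sex label does not account for: female 3 had 139 counts of Ddx3y and 147 of Eif2s3y, both Y-linked, against 0 of each in females 1 and 2, while the Y-linked Kdm5d and Uty had counts in every female (43, 51 and 83 of Kdm5d and 18, 37 and 79 of Uty in females 1, 2 and 3), and male 1 had 193 counts of Xist, the X-inactivation transcript, against 6 in male 2 and 16 in male 3. Skeletal muscle markers also stood apart, with sums over 15 genes of 48.5, 39.4 and 818 TPM in males 1, 2 and 3, against 362, 602 and 50.6 TPM in females 1, 2 and 3.

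Gria2 and Glra2, a glutamate and a glycine receptor subunit gene, share a sequence feature in front of their starts. Promoter windows from RefSeq (GRCm38.p6) were found for 47 members, in 56 entries, and the 250 bases before each start were searched on both strands for AGCAC and GGACAGC in that order, 2 or 3 bases apart. Together they make up most of the RE1 element, to which the repressor REST is known to bind in front of neuronal genes. The pair was present in 2 of the 56 member windows, those of Gria2 and Glra2, and in 12 of all 32851 windows (0.0365%). A match is a description of the sequence; no binding was measured. The windows are printed here from 5′ to 3′ on the strand of the gene, with the pair and the bases between its parts in capitals.
Gria2 (GRCm38.p6, chr3:80802836-80803085, minus strand): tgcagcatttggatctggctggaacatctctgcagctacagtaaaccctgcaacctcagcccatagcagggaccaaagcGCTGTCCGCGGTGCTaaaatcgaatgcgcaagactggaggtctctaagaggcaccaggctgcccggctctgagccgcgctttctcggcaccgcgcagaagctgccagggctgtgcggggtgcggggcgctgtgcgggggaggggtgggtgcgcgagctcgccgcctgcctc
Glra2 (GRCm38.p6, chrX:165327394-165327643, minus strand): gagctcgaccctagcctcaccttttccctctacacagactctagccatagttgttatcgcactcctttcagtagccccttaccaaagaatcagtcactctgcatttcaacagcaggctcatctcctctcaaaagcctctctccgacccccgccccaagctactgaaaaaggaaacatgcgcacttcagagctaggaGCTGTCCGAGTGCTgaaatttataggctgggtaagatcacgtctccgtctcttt
The pair lay 171 to 157 bases before the Gria2 start and 54 to 41 bases before the Glra2 start. Both windows read the pair on the strand opposite to the gene. Entries for Grin2a, Grm4 and Grm5 were not used here, and the Grin1 window held no such pair. Nor was the pair found for Glra3, a gene at 0 in all females as Glra2 was. A link between the pair and the level of a gene was not tested.

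Of the 32 members tested, 6 were higher in males at an adjusted p under 0.1 (18.8%) and 0 were lower in males. Over all genes tested 3.81% were called higher in males and 1.46% lower. They included the AMPA subunit gene Gria2, the NMDA subunit genes Grin1 and Grin2a and the metabotropic genes Grm4 and Grm5. All 6 were scarce: none of the 10 members with a mean of 1 TPM or more passed the threshold. At an unadjusted p under 0.05, 13 members were higher in males and 0 lower, where 11.0% of all genes tested were higher and 9.68% lower. The CPM of all 3 males lay above that of all 3 females for 13 members (40.6%; 13.9% of all genes tested) and below it for 0 (11.5%). The median log2 fold change of the tested members was 0.59, with 28 positive and 4 negative values, against -0.03 over all genes tested.

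These counts have 2 limits of construction. Of the tested members, 5 (Gabra2, Grik1, Grm4 and Grm5 among them) had no female library above the count minimum and entered the test through the males alone; among the 27 others, 3 were called (11.1%), the males lay above in 8 (29.6%) and the median was 0.29. In addition, 13 members had been singled out earlier on these same libraries, so their share is not independent evidence of direction: 4 of their 8 tested genes were called with a median of 2.31, against 2 of 24, Grm4 and Grm5, with a median of 0.29 among the members not singled out. The limits meet in the calls. The 3 called among the 27 were Gria2, Grin1 and Grin2a, all singled out earlier, and Grm4 and Grm5 entered through the males alone. No call was free of both limits.

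**Figure D1:**
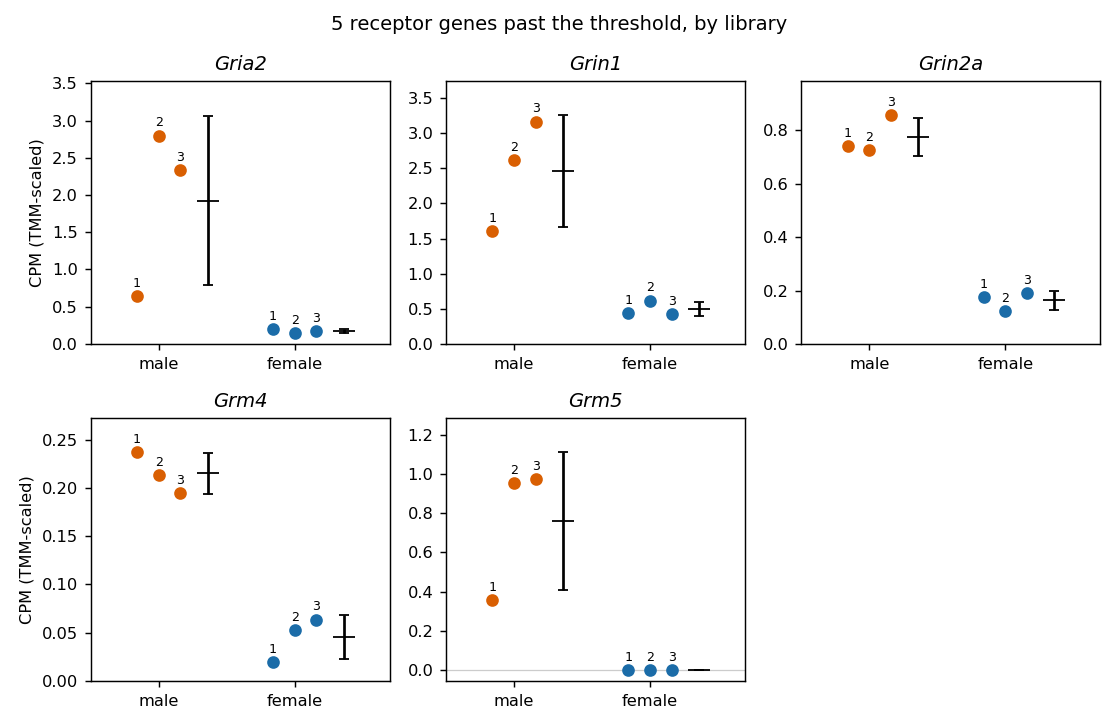
CPM of 5 receptor genes past the threshold in each library (points, numbered by library; males on the left, females on the right), with the mean and SD of 3 libraries per sex beside them in black. In every panel the lowest male point lies above the highest female point, and the Grm5 points of females lie at 0.

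AMPA receptors carry most fast excitatory transmission in the brain, and GRIA2 is the subunit that keeps their pore closed to calcium. Gria2 had 43, 158 and 120 estimated counts in males 1, 2 and 3, against 10, 8 and 11 in females 1, 2 and 3. Every male was above every female, and male 1 was well below the other males. Its level was 1.93 ± 1.14 CPM in males and 0.171 ± 0.027 CPM in females (SD, n = 3 each), 11.1-fold higher in males (log2 fold change 3.48 ± 0.58, edgeR adjusted p = 0.0417). The gene lies on chromosome 3 from 80588757 to 80710538 (GRCm39). Of its male counts 72.6% were assigned to protein-coding transcripts and 20.0% to retained-intron transcripts, against 54.6% and 45.4% of its female counts, which were only 29 in all.

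Gria3 was the most abundant member of all and took 83.1% to 89.4% of the AMPA transcripts in every library. It had 19.7, 14.2 and 18.7 TPM in males 1, 2 and 3, against 15.3, 19.8 and 13.2 TPM in females 1, 2 and 3, and the sexes overlapped (log2 fold change 0.29 ± 0.15, edgeR adjusted p = 0.308). Slightly more of its counts fell on retained-intron than on protein-coding transcripts: 47.8% against 46.7% in males, and 46.4% against 45.0% in females. Gria4 averaged 1.76 TPM in males and 1.93 TPM in females. Gria1 averaged 0.606 TPM in males and 0.204 TPM in females; its CPM did not overlap between the sexes and its edgeR adjusted p was 0.101 (log2 fold change 1.61 ± 0.42). Of the 4 AMPA genes tested, Gria2 was the only 1 called.

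Kainate receptors also gate on glutamate, and they are built from low-affinity subunits (Grik1 to Grik3) with or without high-affinity ones (Grik4, Grik5). Their summed level was 24.1, 22.5 and 29 TPM in males 1, 2 and 3, against 24.7, 27.4 and 24.2 TPM in females 1, 2 and 3, the highest of all classes on average, and 0 of 4 tested genes passed the threshold. Grik5 had 13.0, 13.0 and 17.3 TPM in males 1, 2 and 3, against 12.0, 13.4 and 11.5 TPM in females 1, 2 and 3, and the sexes overlapped (log2 fold change 0.12 ± 0.13, edgeR adjusted p = 0.663). Grik2 averaged 8.41 ± 0.831 TPM in males and 11.3 ± 0.422 TPM in females, with no overlap in TPM and an overlap in CPM, and did not pass the threshold (log2 fold change -0.27 ± 0.12, edgeR adjusted p = 0.267). Grik1 had 14, 16 and 18 counts in males 1, 2 and 3, against 6, 1 and 2 in females 1, 2 and 3 (edgeR adjusted p = 0.112). Grik4 was not tested and had 9 to 12 counts per male library and 3 to 8 per female library.

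NMDA receptors need glycine as well as glutamate to open, and GRIN1 is the subunit that every NMDA receptor contains. Grin1 had 108, 148 and 162 counts in males 1, 2 and 3, against 23, 35 and 27 in females 1, 2 and 3. The lowest male was above the highest female by a wide margin. It averaged 2.46 ± 0.79 CPM in males and 0.50 ± 0.105 CPM in females (SD, n = 3 each) and was 4.9-fold higher in males (log2 fold change 2.29 ± 0.33, edgeR adjusted p = 0.0347). Grin2a, which encodes the glutamate-binding partner subunit typical of the mature brain, had 50, 41 and 44 counts in males 1, 2 and 3, against 9, 7 and 12 in females 1, 2 and 3. Its 3 male libraries lay close together and far from the females, and it was 4.68-fold higher in males (log2 fold change 2.23 ± 0.33, edgeR adjusted p = 0.0347).

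Grin2d, a subunit of the young nervous system, had the highest NMDA level averaged over all 6 libraries, although Grin1 was above it in males 2 and 3 (1.06 and 1.11 TPM). Grin2d had 0.64, 0.843 and 0.737 TPM in males 1, 2 and 3, against 0.545, 0.774 and 0.523 TPM in females 1, 2 and 3, and the sexes overlapped (log2 fold change 0.06 ± 0.22, edgeR adjusted p = 0.911). Grin2b had 58 to 80 counts per male library and 11 to 90 per female library, a spread between females wider than the range of the males. Grin3a and Grin2c, not tested, lay above the females in all 3 males, Grin3a with 11, 27 and 41 counts in males 1, 2 and 3, against 1, 5 and 4 in females 1, 2 and 3. Of the exon bases of Grin3b 32.1% are shared with Tmem259 on the opposite strand and of those of Grin1 11.8% with Grin1os, and whether the counting used strand is not given in the sources used here. The delta receptor gene Grid1 had 22 to 39 counts per male library and 15 to 22 per female library and did not pass the threshold (log2 fold change 0.61 ± 0.42, edgeR adjusted p = 0.445).

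The 8 metabotropic glutamate genes were all rare, with a summed level of 0.752 TPM in males and 0.238 TPM in females, and 2 of the 4 tested were higher in males. Over all genes tested that share was 3.81%. Both called genes, Grm4 and Grm5, entered the test through the males alone. Grm5, a group I receptor coupled to calcium release and expressed by neurons and young astrocytes, had 24, 54 and 50 counts in males 1, 2 and 3, against 0 in each of the 3 females. Set against a floor of 3 counts in each female library, it was at least 14.3-fold higher in males (edgeR adjusted p = 0.0366). Grm4, a group III receptor found at presynaptic endings, had 16, 12 and 10 counts in males 1, 2 and 3, against 1, 3 and 4 in females 1, 2 and 3. It was 4.48-fold higher in males (log2 fold change 2.16 ± 0.53, edgeR adjusted p = 0.089), the call nearest to the threshold among the members.

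Grm7 had the highest metabotropic TPM averaged over all 6 libraries, although Grm5 was above it in the male mean (0.213 TPM for Grm5 and 0.176 TPM for Grm7). It had 0.0561, 0.163 and 0.31 TPM in males 1, 2 and 3, against 0.0519, 0.249 and 0.0491 TPM in females 1, 2 and 3, and the sexes overlapped (edgeR adjusted p = 0.362). Grm3, a group II receptor of glia and neurons, was not tested; it is singled out after its values were seen, with 26, 8 and 13 counts in males 1, 2 and 3, against 0, 0 and 1 in females 1, 2 and 3. The ratio of its counts summed per sex, scaled by normalised library size, was 45.8, with an exact interval for counting error alone of 7.82 to 1850. Grm6, known from retinal bipolar cells, was at 0 in all males and had 1, 1 and 3 counts in females 1, 2 and 3, the only untested member whose females all lay above the males.

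**Figure D2:**
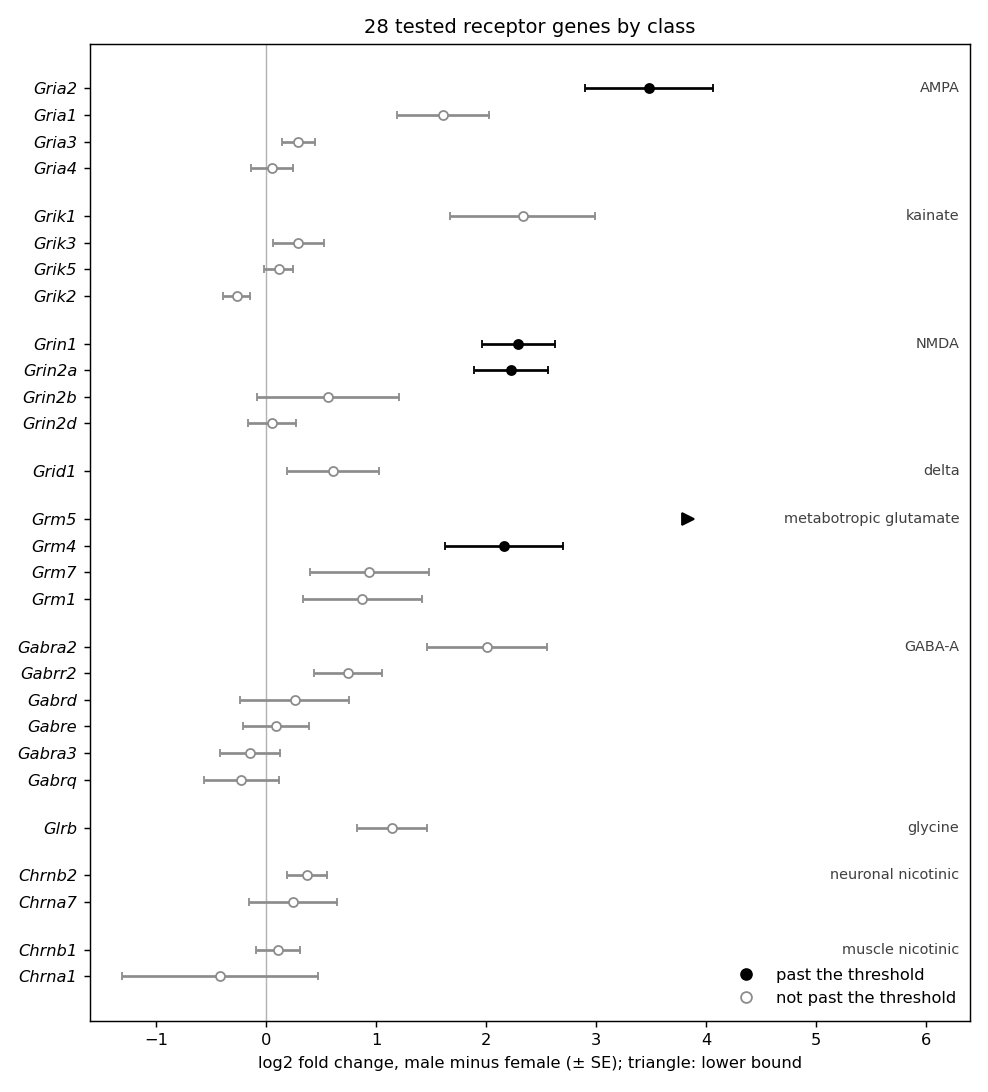
Log2 fold change, male minus female, of 28 tested receptor genes by class, with SE bars; filled points passed the threshold and open points did not. Grm5 is drawn as a triangle at its lower bound. Gria2, Grin1, Grin2a, Grm4 and Grm5 are the filled symbols, and the 4 members with negative values are Grik2, Gabra3, Gabrq and Chrna1.

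GABA-A receptors are chloride channels built from subunits of several families, of which alpha, beta and gamma are the commonest in the brain. Gabra3 was the main GABA-A gene, with 49.8% to 78.8% of the class in each library. It had 8.83, 4.38 and 10.2 TPM in males 1, 2 and 3, against 9.72, 13.7 and 6.99 TPM in females 1, 2 and 3, and the sexes overlapped (log2 fold change -0.14 ± 0.27, edgeR adjusted p = 0.798). Gabra2 had 13, 35 and 32 counts in males 1, 2 and 3, against 5, 7 and 8 in females 1, 2 and 3 (log2 fold change 2.01 ± 0.54, edgeR adjusted p = 0.106) and did not pass the threshold, although its lowest male was above its highest female. Gabrr2, Gabrd, Gabre and Gabrq had log2 fold changes of -0.23 to 0.75 and did not pass it.

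Most GABA-A genes lie in clusters, and a pair of these differed in level. The chromosome 5 cluster of Gabrg1, Gabra2, Gabra4 and Gabrb1 had 35, 99 and 111 counts in males 1, 2 and 3, against 6, 9 and 10 in females 1, 2 and 3. Every male sum was above every female sum, with a mean of 1.48 CPM in males and 0.145 CPM in females. The X-linked cluster of Gabre, Gabra3 and Gabrq, with the subunits epsilon, alpha 3 and theta, held far more counts and overlapped between the sexes: 23.0 CPM in males and 25.1 CPM in females. No test was made on the cluster sums, and the single genes are those of the test above.

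Several untested GABA-A genes were nearly absent from females; they are given after their values were seen. Gabrb1 had 8, 38 and 60 counts in males 1, 2 and 3, against 1, 0 and 0 in females 1, 2 and 3, a ratio of summed, library-scaled counts of 103 with an exact counting interval of 18.1 to 4120. Gabra4 had 8, 12 and 7 counts in males 1, 2 and 3, against 0, 0 and 1 in females 1, 2 and 3, and Gabrb2 had 9, 18 and 16, against 0, 2 and 1. Gabra5 had 4, 34 and 28 counts in males 1, 2 and 3, against 4, 0 and 0 in females 1, 2 and 3, so that its lowest male overlapped its highest female. Gabrp had 7 counts in male 1 and 0 elsewhere.

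Glycine receptors pair alpha subunits with the beta subunit encoded by Glrb, which anchors them through gephyrin. Only Glrb could be tested. It had 2.69, 2.77 and 3.79 TPM in males 1, 2 and 3, against 1.15, 1.7 and 1.55 TPM in females 1, 2 and 3, and every male was above every female. In CPM it averaged 4.49 ± 1.03 in males and 2.02 ± 0.762 in females (SD, n = 3 each); its log2 fold change was 1.15 ± 0.32 with an edgeR adjusted p of 0.111, short of the threshold. It was the member of 1 TPM or more with the largest fold change, and the only 1 of those 10 whose CPM did not overlap.

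The alpha subunit genes were at or near 0 in females. Glra2, the gene with the RE1-type pair printed above, had 1, 29 and 36 counts in males 1, 2 and 3, against 0 in each of the 3 females. Its male mean was at least 7.72-fold higher by the floor of 3 counts in each female library, a bound with no test. Male 1, with 1 count, was itself below that floor. Glra1, the alpha subunit of adult spinal cord and brainstem, had 11, 45 and 27 counts in males 1, 2 and 3, against 1, 0 and 2 in females 1, 2 and 3, a ratio of summed, library-scaled counts of 26.9 with an exact counting interval of 8.91 to 133. Glra3 had 1, 13 and 9 counts in males 1, 2 and 3, against 0 in each female. Its male mean was at least 2.64-fold higher, again with male 1 below the floor. Male 1 was again the lowest male for all 3 genes.

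**Figure D3:**
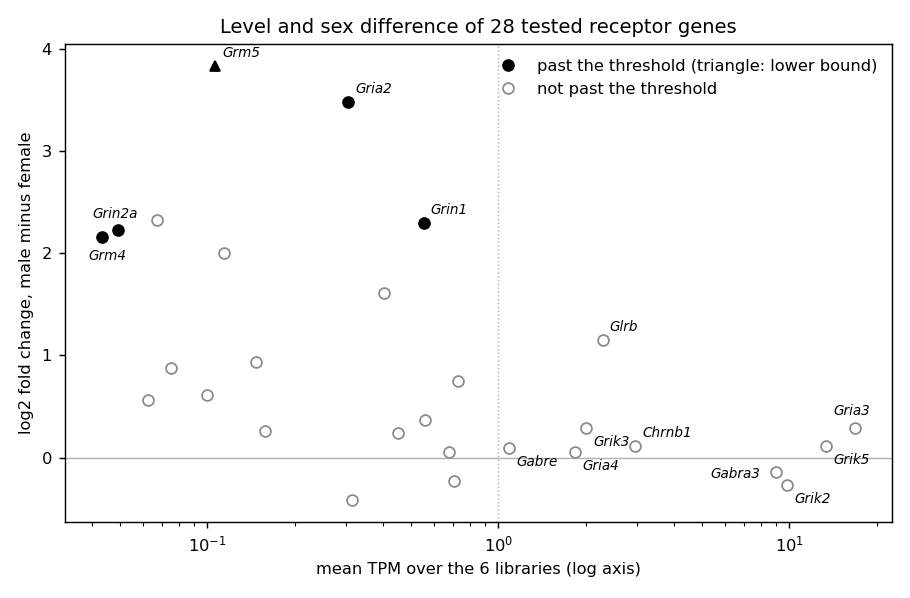
Mean TPM over the 6 libraries (log axis) against log2 fold change, male minus female, for 28 tested receptor genes; filled symbols passed the threshold, the triangle is the lower bound of Grm5, and the dotted line marks 1 TPM. The 9 genes right of that line have log2 fold changes of -0.27 to 1.15 with a median of 0.11, and none is filled; the 19 left of it have a median of 0.88, and 5 are filled.

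Neuronal nicotinic receptors are pentamers of alpha and beta subunits or of alpha 7 alone, and Chrna4 with Chrnb2 forms the main type of the brain. Only Chrnb2 and Chrna7 of the 11 genes were tested, and neither passed the threshold. Chrnb2 had 0.607, 0.567 and 0.702 TPM in males 1, 2 and 3, against 0.515, 0.505 and 0.467 TPM in females 1, 2 and 3, with every male above every female (log2 fold change 0.37 ± 0.18, edgeR adjusted p = 0.294). Its counts moved between 2 long transcripts from library to library: 50.1, 156 and 177 counts in males 1, 2 and 3, against 41.7, 56.8 and 0 in females 1, 2 and 3, were assigned to the protein-coding Chrnb2-201, and 156, 0 and 0 in males, against 75.6, 75.2 and 152 in females, to Chrnb2-202, which is not protein-coding. Of its exon bases 16.2% are shared with Adar on the opposite strand.

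Chrna7 had 30 to 53 counts per male library and 21 to 48 per female library (edgeR adjusted p = 0.766). Chrna4, untested, had 9, 26 and 29 counts in males 1, 2 and 3, against 1, 3 and 0 in females 1, 2 and 3. The other 8 neuronal subunit genes had at most 24 counts over the 3 males and at most 20 over the 3 females, and those of Chrna2 and Chrna10 cannot be relied on, since 77.4% and 72.7% of their exon bases are shared with Ptk2b and Art1 on the opposite strand.

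**Figure D4:**
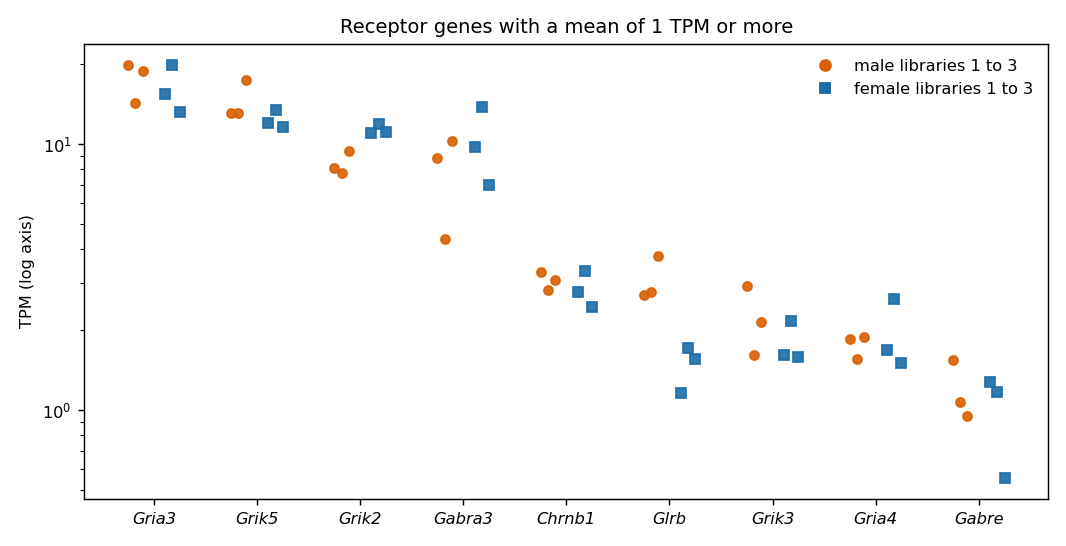
TPM (log axis) of 9 receptor genes with a mean of 1 TPM or more in each library, males as circles left of females as squares. Gria3, Grik5, Grik2 and Gabra3 lie above the others in every library, and only for Grik2 and Glrb do the TPM values of the sexes not overlap.

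The muscle nicotinic receptor is made of 2 alpha 1 subunits with beta 1, delta and either gamma in the embryo or epsilon in the adult. Chrnb1 had 3.3, 2.82 and 3.07 TPM in males 1, 2 and 3, against 2.76, 3.32 and 2.43 TPM in females 1, 2 and 3, and the sexes overlapped (log2 fold change 0.11 ± 0.20, edgeR adjusted p = 0.791). Chrna1 had 17, 13 and 96 counts in males 1, 2 and 3, against 30, 114 and 32 in females 1, 2 and 3 (log2 fold change -0.42 ± 0.89, edgeR adjusted p = 0.822), with the high values in male 3 and female 2. Chrnd had 0, 1 and 9 counts in males 1, 2 and 3, against 0, 27 and 0 in females 1, 2 and 3, and Chrne had 4, 1 and 11, against 3, 24 and 2. Male 3 and female 2, the libraries with the most counts of these 3 genes, were also those with the highest skeletal muscle marker sums, 818 TPM in male 3 and 602 TPM in female 2. Female 1 did not follow this order: it had 362 TPM of the markers, against 50.6 TPM in female 3. The 3 genes summed to 0.645 CPM in female 1 and 0.541 CPM in female 3. The part of muscle in the values of these genes was not tested. Chrng, the embryonic subunit gene, had 1 count in male 3 and 0 elsewhere.

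Chrna1 and Chrne are shown because their promoters carry sequences linked to muscle and to the endplate. CAGCTG is an E-box, of the kind bound by MyoD and its relatives, and CCGGAA is the core of the N-box known from endplate genes. On either strand CAGCTG was present in 13.0% of all promoter windows of this length, in 1.26% more than once, and CCGGAA in 12.0%. The 250 bases before each start are printed from 5′ to 3′ on the strand of the gene, with these motifs in capitals.
Chrna1 (GRCm38.p6, chr2:73580339-73580588, minus strand): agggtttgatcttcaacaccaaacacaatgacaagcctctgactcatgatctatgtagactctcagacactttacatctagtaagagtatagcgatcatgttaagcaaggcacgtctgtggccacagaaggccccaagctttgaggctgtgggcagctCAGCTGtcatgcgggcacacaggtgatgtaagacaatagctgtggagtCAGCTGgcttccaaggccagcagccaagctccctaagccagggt
Chrne (GRCm38.p6, chr11:70619195-70619444, minus strand): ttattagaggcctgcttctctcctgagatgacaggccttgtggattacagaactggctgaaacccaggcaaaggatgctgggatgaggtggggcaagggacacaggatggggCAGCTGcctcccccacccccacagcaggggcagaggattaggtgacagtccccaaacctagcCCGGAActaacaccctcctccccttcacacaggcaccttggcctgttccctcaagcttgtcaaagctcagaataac
The E-boxes of Chrna1 began 92 and 44 bases before its start, that of Chrne 138 bases before, and the CCGGAA of Chrne 76 bases before. CAGCTG was found in 7 of the 56 member windows, including those of Chrng, Gabrp and Glra3, and CCGGAA in 4, including those of Gabrg1 and Grik2. Neither motif was confined to the muscle genes or more common among the members than over all windows.

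**Figure D5:**
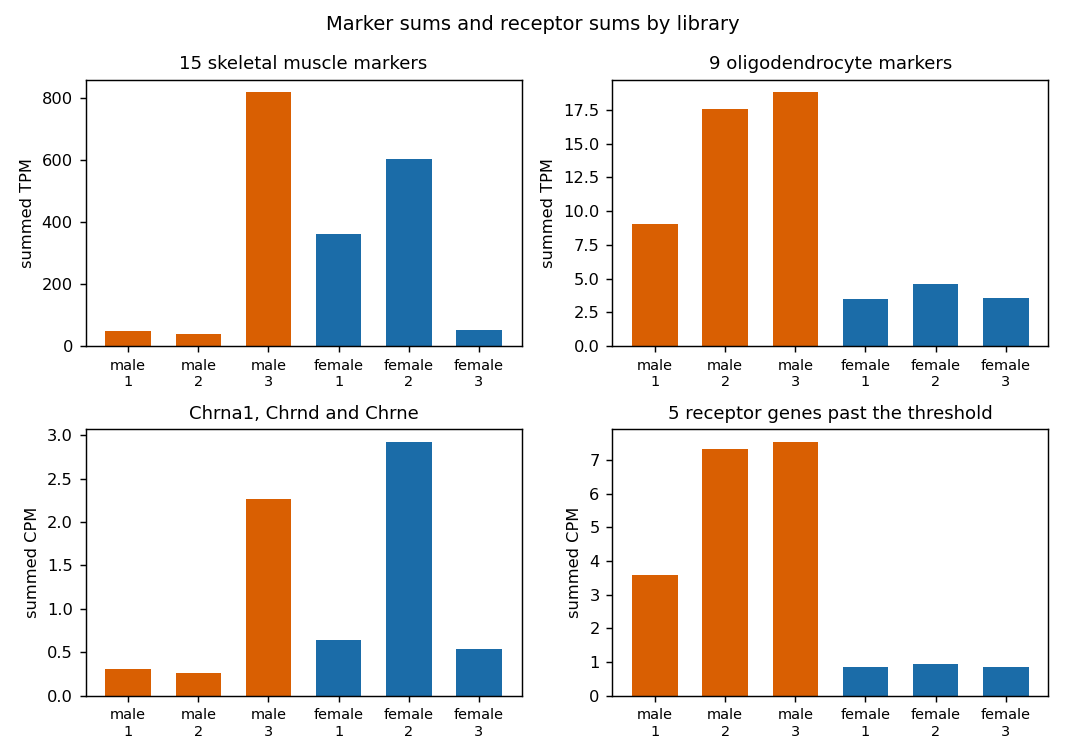
Sums by library, males left of females: TPM of 15 skeletal muscle markers and of 9 oligodendrocyte markers (upper panels), and CPM of Chrna1, Chrnd and Chrne and of Gria2, Grin1, Grin2a, Grm4 and Grm5, which passed the threshold (lower panels). Male 3 and female 2 are highest in both left panels. Female 1 had 362 TPM of muscle markers and 0.645 CPM of Chrna1, Chrnd and Chrne, against 50.6 TPM and 0.541 CPM in female 3. Males 2 and 3 are highest in both right panels. The 5 receptor genes had 3.57, 7.32 and 7.53 CPM in males 1, 2 and 3, against 0.84 to 0.939 CPM in females. They were chosen by this difference, so their sum is no further evidence of it. Schwann cell, astrocyte, central neuron and sensory neuron marker sums were also higher in every male and are not drawn.

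Male 1 stood below the other males for some of the higher genes and not for others. Its CPM divided by the mean of males 2 and 3 was 0.248 for Gria2, 0.369 for Grm5 and 0.554 for Grin1, but 0.936 for Grin2a and 1.16 for Grm4. Among the untested members the ratio was 0.0243 for Glra2, 0.129 for Gabrb1 and 0.246 for Glra1, but 0.686 for Gabrg3, 0.763 for Grik4 and 1.95 for Grm3. Markers of central glia and neurons that were higher in males had ratios from 0.146 for Ermn to 0.977 for Hepacam. Among those between were 0.306 for Syt1, 0.332 for Aqp4, 0.334 for Mobp, 0.603 for Mog and 0.62 for Nptx1. Olig1 had 0.648, Rbfox3 had 0.805 and Gjb6 had 0.915. The 7 called Schwann cell markers had 0.866 to 1.05. A link between these ratios and those of the receptor genes was not tested.

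Markers of other cell types differed between the sexes to unequal degrees. The called counts below stand beside 3.81% of all genes tested called higher in males. The marker lists were chosen with earlier results of these data known. Oligodendrocyte markers summed to 9.08, 17.6 and 18.8 TPM in males 1, 2 and 3, against 3.51, 4.61 and 3.53 TPM in females 1, 2 and 3, and 4 of 7 tested genes were called, Mog, Mobp, Ermn and Olig1. Ermn and Olig2 were at 0 in all females, so Ermn entered the test through the males alone. Without Mobp, the most abundant, the sums were 5.86 to 8.48 TPM in males and 3.01 to 4.18 TPM in females. Astrocyte markers summed to 60.4 to 71.4 TPM in males and 35.8 to 43.3 TPM in females, with 4 of 9 tested genes called, 6 positive and 3 negative log2 fold changes (Slc4a4, Aldh1l1 and Slc7a10). Without Hepacam, the most abundant and a called gene, the other 8 overlapped, at 20.8 to 24.7 TPM in males and 16.4 to 21.0 TPM in females. Central neuron markers summed to 49.9 to 86.5 TPM in males and 16.8 to 38.7 TPM in females, with 3 of 6 tested genes called (Rbfox3, Nptx1 and Syt1) and a negative value for Nrgn (log2 fold change -0.41). Most of that sum was Ddn, which was not called, and the other 9 overlapped, at 5.04 to 16.1 TPM in males and 5.08 to 9.83 TPM in females. Of the central neuron markers Neurod1 and Neurod2 were at 0 in all females and had at most 4 counts in a male. Sensory neuron markers, from the neurons whose axons run in this nerve, summed to 27.3 to 30.6 TPM in males and 19.1 to 22.6 TPM in females, and 1 of 9, the neurofilament gene Nefh, was called. Schwann cell markers summed to 43800 to 53100 TPM in males and 19800 to 25900 TPM in females, with 7 of 12 called. The part of these cell types in the receptor values was not tested, and in bulk tissue more cells of a type and more RNA per cell cannot be told apart.

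The genes for making, loading and clearing GABA and glycine had 5 of 8 tested genes higher in males and 0 lower, with a median log2 fold change of 2.45. Over all genes tested 3.81% were called higher in males and 1.46% lower. This list and the partner lists that follow were chosen with earlier results of these data known. Slc6a5, the neuronal glycine transporter, had 91, 211 and 151 counts in males 1, 2 and 3, against 5, 0 and 8 in females 1, 2 and 3 (log2 fold change 5.10 ± 0.76, edgeR adjusted p = 0.0347), and Slc32a1, which loads both transmitters into vesicles, had 36, 57 and 65, against 1, 2 and 3 (log2 fold change 4.66 ± 0.54, edgeR adjusted p = 0.0323). No female library of either gene was above the count minimum, so both entered the test through the males alone. Gad2 and Slc6a11 were also called, and Abat, which degrades GABA and was the most abundant gene of the list, averaged 17.8 TPM in males and 12.4 TPM in females without passing the threshold.

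For glutamate, 2 of 8 supply and uptake genes were higher in males: Slc17a6, a vesicular glutamate transporter, with 36, 91 and 120 counts in males 1, 2 and 3, against 2, 6 and 14 in females 1, 2 and 3, and Slc1a2, the main glial transporter, with 668, 1270 and 1346, against 81, 185 and 174. Glul, the glutamine synthetase gene and the most abundant of that list, did not pass. The share called higher in males over all genes tested, 3.81%, applies to each list here. Among 21 tested auxiliary and scaffold genes of glutamate receptors 2 were higher in males, Cacng2 (stargazin, log2 fold change 2.58 ± 0.37, edgeR adjusted p = 0.0347) and Cacng4 (1.92 ± 0.45, edgeR adjusted p = 0.0822), which both encode AMPA receptor partners. With 6, 8 and 6 counts in females 1, 2 and 3, all under the count minimum, Cacng2 entered the test through the males alone. Dlg1, the most abundant, averaged 43.6 TPM in males and 54 TPM in females. Of the 7 scaffold genes of GABA-A and glycine receptors 0 passed, with Gabarap at 547 TPM in males and 510 TPM in females. Neither GABA-B gene passed, and Gabbr1 averaged 22.1 TPM in males and 18.6 TPM in females. Of 11 genes for nicotinic assembly and the endplate, 1 was higher in males, Rapsn, which clusters the muscle receptor (log2 fold change 0.97 ± 0.13, edgeR adjusted p = 0.0347), while Agrn, the most abundant, did not pass. The 3 genes for acetylcholine supply were not tested and summed to 0.135 to 0.21 TPM in males and 0.0106 to 0.0347 TPM in females.

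The calls of the 6 members depended on single libraries. Without male 3 the edgeR adjusted p was 0.152 for Gria2, 0.139 for Grin1, 0.152 for Grin2a, 0.268 for Grm4 and 0.144 for Grm5, and without female 1 it was 0.171, 0.161, 0.161, 0.289 and 0.15 in the same order, so that 0 members were called; in those settings 6 and 1 of all genes were called higher in males. Without female 2 the calls were those of Grin1, Grin2a and Grm5 (Gria2 at 0.108, Grm4 at 0.194). The count was 15 without male 1 and 15 without female 3. Of all genes tested, 1.51% were called higher in males without female 2, 2.81% without male 1 and 7.08% without female 3. The members tested were 43, 43 and 44 in the same order. Female 3 held Ddx3y and Eif2s3y counts, and male 1 held the most Xist counts of the males. Without both libraries, 19 of 43 tested members were called, where 5.29% of all genes tested were called higher in males. Of the 6, 5 kept their call, and the exception was Grm4 (0.117). Over all alternatives the adjusted p ran from 3.45e-07 to 0.171 for Gria2, 2.93e-07 to 0.161 for Grin1, 0.000892 to 0.161 for Grin2a, 0.0824 to 0.289 for Grm4 and 9.8e-07 to 0.15 for Grm5, and every log2 fold change of these 5 stayed positive.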

How the data were processed

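RNA from 6 pools was sequenced from stranded libraries. The submitters' processing notes name Trimmomatic 0.39, Salmon 1.5.2 and MultiQC 1.9. The authors deposited Salmon's table per transcript with its estimated count, which is not normalised and splits reads shared by several transcripts. They also deposited TPM, corrected for effective length and scaled to one total per library. Whether Salmon used strand is not given in the sources used here.

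Both values were summed per gene ID, and counts were rounded. In R 4.3.3, edgeR 4.0.16 filtered genes (filterByExpr), scaled libraries by TMM (trimmed mean of M values) and tested sex with the quasi-likelihood F test on all 18424 genes that passed, with Benjamini-Hochberg adjustment and a threshold of adjusted p under 0.1. The SE is the log2 fold change over the square root of F. Bounds use a floor of 3 counts per library; they and the exact 95% intervals cover counting error only. Coordinates of genes are GENCODE M39 on GRCm39 and 98.9% of genes were found in it; promoters are RefSeq on GRCm38.p6.

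Every member may be named, but some members and partner genes are not reported here. Values per library are given for called members, for the most abundant of each class and for those at 0 in 1 sex with 30 or more counts in the other; the others given per library were chosen after their values were seen. The members and the lists of partners and markers were chosen with earlier results of these data known. No library copied another (chi-square per degree of freedom 48.1 to 144.9). Alternatives were other size factors, DESeq2 1.42.0, limma-voom (limma 3.58.1), other filters, a length offset, protein-coding transcripts, the replicate block, a stricter threshold and libraries left out.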

Additional observations from a re-analysis of the deposited data

How the results depend on the processing

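The count of 6 members higher in males was 5 to 8 with DESeq2 size factors, library size alone, limma-voom, a length offset, protein-coding transcripts only or an adjusted p under 0.05. In those settings 1.35% to 4.73% of all genes tested were called higher in males. The member count was 21 with the DESeq2 Wald test and 20 with no filter on low counts. Both settings test more members, 53 and 64 in place of 32, and 5 of the 6 kept their call in each. They called 6.79% and 3.45% of all genes tested higher in males. The member count was 2 with a minimum of 1 CPM in 3 libraries, where 17 members were tested and 5 of the 6 (all but Grin1) were not. That setting called 4.48% of all genes tested higher in males. Leaving out 1 library gave 0 to 15 members, with 0 without male 3 or female 1, 3 without female 2, and 15 without male 1 or female 3; without female 3 and male 1 together it was 19. With libraries left out, 0.00526% to 7.08% of all genes tested were called higher in males. The cause of these shifts was not tested. The count lower in males was 0 under all 17 alternatives, and the log2 fold changes were 3.13 to 3.92 for Gria2, 2.08 to 2.53 for Grin1, 2.06 to 2.39 for Grin2a and 1.84 to 2.48 for Grm4. Protein-coding transcripts alone gave 30 tested members.

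The replicate numbers did not pair the libraries: same-numbered libraries had correlations of their deviations of -0.04, -0.30 and -0.30. With the number as a replicate block 0 members were called, and 48 genes of all tested were called higher in males. Depth limits the rare members: the 32 untested members with a count had 1 to 107 counts over all 6 libraries.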
